A study of Arabidopsis thaliana with 12 samples.

Results

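THI2.1 and PDF1.2 are a pair of Arabidopsis thaliana defence genes widely used as markers of jasmonate signalling, and they are described here as 2 of 22810 probe sets of an Affymetrix ATH1 array. The probe sets are those listed for THI2.1 (AT1G72260) and for PDF1.2 (AT5G44420). Total RNA came from vegetative rosettes of plants 4 weeks old, in 3 genotypes and in 2 water states, with 2 biological replicates in each of 6 groups and 12 arrays in all. In the deficit groups watering was withheld until the relative water content stood at 65%, and in the watered groups it went on. The groups were the atx1 mutant under deficit and watered, the MYO-OX line under deficit and watered, and Columbia-0 wild type under deficit and watered. The atx1 mutant is affected in the trithorax-family histone methyltransferase ATX1, and MYO-OX, by its name, overexpresses MYO1, which belongs to the myotubularin family of phosphoinositide phosphatases. The allele and background accession of atx1 and the promoter used in MYO-OX are not given in the sources used here. The number of independent lines and the number of plants pooled per sample are not given either, so each line stands for itself alone. Whether atx1 and wild type differ in accession was not tested.

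THI2.1 encodes a thionin and PDF1.2 a plant defensin. Both are small, cysteine-rich secreted peptides that act against fungi and bacteria. Jasmonates are bound by the receptor COI1, which leads to the breakdown of the JAZ repressors and frees the transcription factors held by them. Downstream, a branch led by MYC factors serves mainly wound and insect defence, and a branch led by ORA59 and ERF1 needs ethylene as well and drives PDF1.2. THI2.1 is known as a jasmonate-inducible gene of seedlings and leaves that is also active in flowers and siliques.

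Signals are log2 values, so that a difference of 1 is a doubling, and the array carries no counts, so the number of arrays limits the precision. Replicates of a group correlated at 0.928 in watered MYO-OX to 0.987 in wild type under deficit across the 22746 tested probe sets, a correlation over probe sets that do not vary independently. The labels call the replicates biological without saying how plants were divided, so p-values measure the spread between these samples. The samples were checked against tissue markers, chosen by name after the data were seen. The array means of 6 photosynthesis genes lay between 11.63 and 12.96. In watered MYO-OX, PRK read 9.25 in replicate 1 and 12.27 in replicate 2, and RCA read 10.81 and 13.72. On replicate 1 PRK stood at or above 87.3% of the tested probe sets. Of these 6, LHCB4.2 and PSAN were called lower under deficit in MYO-OX (-1.35 and -1.65; limma adjusted p = 0.00584 and 0.00444) and in wild type (-1.38 and -1.56; 0.00594 and 0.00607), and none was called in atx1. With all arrays included none of the 6 was called in a difference of responses between genotypes, beside at most 0.220% of all probe sets. Under deficit PSAN and PSBW were called higher in atx1 than in wild type (1.01 and 0.76; limma adjusted p = 0.0497 and 0.0406), and these calls ended in 11 and 14 of 20 alternative settings, either atx1 replicate left out in turn among them. Both wild-type response calls ended without watered or deficit wild-type replicate 1, and both in MYO-OX in a fit to its own arrays. The 1 measured root marker, PYK10, stood at or above 95.8% to 96.1% of the tested probe sets in watered wild type and 88.5% to 96.1% in watered MYO-OX. In watered atx1, at 51.2% to 62.6%, it was called lower than in wild type (-3.88; limma adjusted p = 0.00848) and MYO-OX (-3.38; 0.0136). These PYK10 calls ended in 3 and 2 of 20 alternative settings. The part of these markers in the results for PDF1.2 and THI2.1 was not tested. The array means of 6 flower genes (UFO, INO, AMS, SPL, PTL and SAP) lay between 4.27 and 4.66, and each of the 6 stood above only 19.9% to 42.6% of the tested probe sets of its array. The 1 measured seed gene, OLEO3, read 5.39 and 5.24 in atx1 under deficit and 4.27 to 5.20 on the other arrays. It was not called in any of the 12 comparisons, and its part in the THI2.1 results was not tested. In bulk tissue, a change in the number of cells that express a gene and a change in RNA per cell cannot be told apart.

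THI2.1 was bright in every group and brightest in the atx1 mutant. In atx1 the signal of THI2.1 was 12.30 and 11.90 under deficit and 11.24 and 11.15 with watering. In MYO-OX it was 10.02 and 8.21 under deficit and 9.60 and 10.00 with watering. In wild type it was 9.46 and 10.15 under deficit and 8.85 and 10.10 with watering. All 4 atx1 arrays lay above all 8 arrays of the other genotypes, and within atx1 both deficit arrays lay above both watered arrays.

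The THI2.1 group means followed the order atx1 under deficit (12.10 ± 0.285), atx1 watered (11.20 ± 0.0586), MYO-OX watered (9.80 ± 0.284), wild type under deficit (9.80 ± 0.490), wild type watered (9.47 ± 0.888) and MYO-OX under deficit (9.11 ± 1.28), as mean ± SD, n = 2. The steps of 0.905 between the pair of atx1 groups and of 1.39 from watered atx1 to watered MYO-OX separated groups without overlap. The other 4 groups overlapped, and their order does not exceed the spread between replicates. The spread was uneven, with an SD of 1.28 in MYO-OX under deficit, where 1 array read 8.21, and of 0.0586 in watered atx1. As a description of brightness, which also depends on the probes, THI2.1 stood at or above 98.8% to 99.3% of the tested probe sets in atx1 under deficit, 97.3% to 97.4% in watered atx1 and 76.0% to 94.6% in the other groups.

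PDF1.2 was low on every deficit array and higher on every watered one. In atx1 the signal of PDF1.2 was 4.31 and 4.44 under deficit and 8.92 and 6.75 with watering. In MYO-OX it was 5.34 and 4.60 under deficit and 9.24 and 7.72 with watering. In wild type it was 4.34 and 4.19 under deficit and 7.67 and 6.41 with watering. All 6 deficit arrays lay below all 6 watered arrays, whatever the genotype.

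The PDF1.2 group means, as mean ± SD with n = 2, followed the order MYO-OX watered (8.48 ± 1.08), atx1 watered (7.84 ± 1.53), wild type watered (7.04 ± 0.892), MYO-OX under deficit (4.97 ± 0.523), atx1 under deficit (4.37 ± 0.0894) and wild type under deficit (4.27 ± 0.102). Watered atx1 overlapped watered MYO-OX and watered wild type, and atx1 overlapped wild type under deficit. Both watered MYO-OX arrays, at 9.24 and 7.72, lay above both watered wild-type arrays, at 7.67 and 6.41. Within replicate 1 and within replicate 2 the watered arrays stood in the same order of genotypes, MYO-OX, atx1 and wild type. A step of 2.07 separated the lowest watered group from the highest deficit group, and both MYO-OX deficit arrays lay above the other 4 deficit arrays. The PDF1.2 signal stood at or above 54.1% to 87.2% of the tested probe sets on watered arrays and 23.2% to 42.3% on deficit arrays. The files hold no detection calls, so the deficit levels may be background alone and the size of the fall is not exact.

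**Figure D1:**
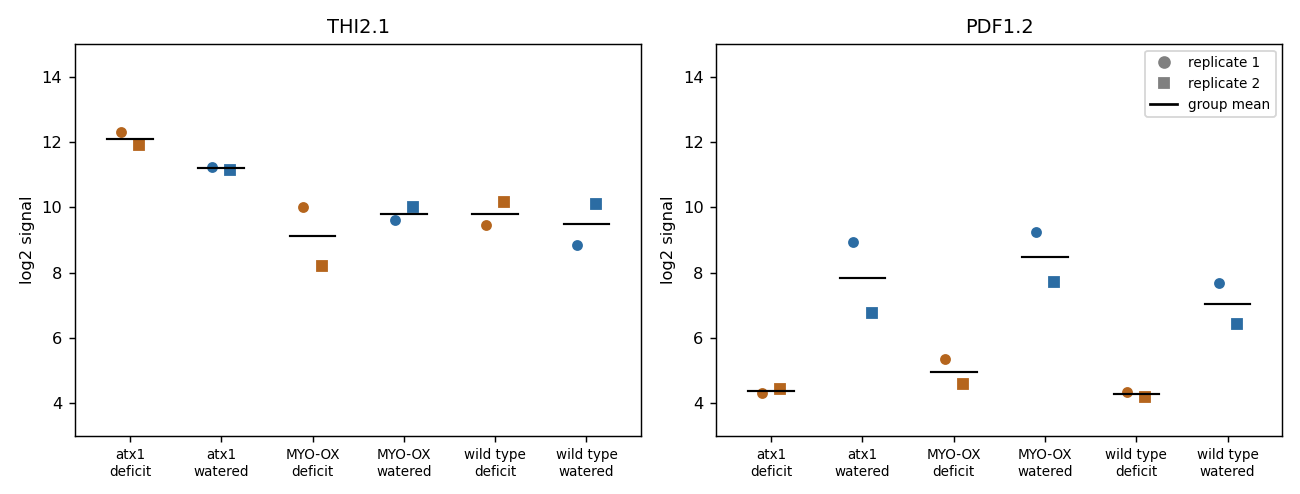
Log2 signal of THI2.1 and of PDF1.2 on each of the 12 arrays, by genotype and water state, with circles for replicate 1, squares for replicate 2, brown for deficit, blue for watered and a black line for the group mean. The 4 atx1 arrays of THI2.1 sit between 11.15 and 12.30, above the rest, and the 6 deficit arrays of PDF1.2 sit between 4.19 and 5.34, below all watered arrays.

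Within each watered group replicate 1 of PDF1.2 read higher than replicate 2. The spiked hybridization controls, which are added in known amounts and report how well an array hybridized, also read higher in replicate 1 of each watered group: their means were 9.53 and 8.25 in atx1, 9.42 and 8.33 in MYO-OX, and 8.79 and 8.17 in wild type. They read higher in replicate 1 of each deficit group too, at 10.03 and 9.66 in atx1, 9.61 and 8.78 in MYO-OX, and 8.85 and 8.42 in wild type, where PDF1.2 was higher in replicate 1 of MYO-OX and wild type and lower in that of atx1. The gap between the 3′ and 5′ probe sets of GAPDH, which widens with partly degraded or incompletely copied RNA, was 0.960 and 0.482 in watered atx1, 1.09 and 0.444 in watered MYO-OX, and 0.865 and 0.590 in watered wild type. Their part in the spread of PDF1.2 was not tested.

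The first comparison asked how the mutant and the overexpression line differed from wild type under deficit. THI2.1 was 4.92-fold higher in atx1 than in wild type under deficit, a log2 difference of 2.30 ± 0.598 (SE; 95% interval 0.93 to 3.67; limma adjusted p = 0.0424). In that comparison 12.1% of all tested probe sets were called in either direction and 7.36% were called higher, where called means an adjusted p under 0.05 in limma, a linear model with moderated variances. THI2.1 was also 7.92-fold higher in atx1 than in MYO-OX under deficit, a log2 difference of 2.99 ± 0.598 (SE; 95% interval 1.62 to 4.35; limma adjusted p = 0.0182), beside 11.2% of all probe sets called in either direction and 6.72% called higher. The 2 comparisons share the atx1 deficit arrays.

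The call of THI2.1 in atx1 against wild type under deficit lay close to the threshold. It ended without 6 of the 12 arrays in turn: atx1 deficit replicate 1 (2.098, limma adjusted p = 0.207) or 2 (2.50, 0.0899), wild-type deficit replicate 1 (1.95, 0.266) or 2 (2.65, 0.0923), and either watered atx1 replicate (2.30, 0.0672). It also ended with each array centred on its median (2.07, limma adjusted p = 0.0516), with quantile normalization repeated (2.27, 0.0642) and with either control measure as a covariate. The GAPDH 3′ to 5′ gap was 1.74 and 1.19 in atx1 under deficit, against 0.557 and 0.582 in wild type under deficit. With that gap as a covariate the THI2.1 difference was 2.13 (limma adjusted p = 0.212). The hybridization control mean was 10.03 and 9.66 in atx1 under deficit, against 8.85 and 8.42 in wild type under deficit, and as a covariate it gave 2.23 (limma adjusted p = 0.133). The call against MYO-OX ended without atx1 deficit replicate 1 (2.78, limma adjusted p = 0.111), without MYO-OX deficit replicate 2 (2.08, 0.0901), with the GAPDH covariate (2.88, 0.0653) and in a fit to the arrays of that comparison alone (2.99, 0.0702). All these settings kept THI2.1 higher in atx1.

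Centring each array on its median also turned the balance of calls over all probe sets. In atx1 against wild type under deficit it gave 966 probe sets higher and 1628 lower, in place of 1674 and 1077, and it moved the median change of all probe sets to -0.22, where it had been 0.0098. In atx1 against MYO-OX under deficit it gave 881 higher and 1578 lower, in place of 1529 and 1010.

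In MYO-OX under deficit THI2.1 differed from wild type under deficit by -0.69 (95% interval -2.06 to 0.68) and was not called. No probe set was called between these groups by limma (0.00%), and 147 probe sets had an unadjusted p under 0.05. That is fewer than this threshold gives on average over 22746 tests when nothing differs.

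PDF1.2 did not pass the test in any of the 3 genotype pairs under deficit. The log2 difference was 0.11 (95% interval -1.62 to 1.83) for atx1 against wild type, 0.70 (-1.03 to 2.43) for MYO-OX against wild type and -0.60 (-2.32 to 1.13) for atx1 against MYO-OX. With the hybridization controls as a covariate, the last of these was called at -1.50 (limma adjusted p = 0.0288).

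With watering, the THI2.1 difference between atx1 and wild type was 1.72 ± 0.598 on the log2 scale, or 3.30-fold (SE; 95% interval 0.35 to 3.09). Although both atx1 arrays lay above both wild-type arrays, this did not pass the adjusted test (limma adjusted p = 0.245). In that comparison 501 of 22746 probe sets were called, 272 of them higher and 229 lower, where those lower made up 1.01% of all tested. Against MYO-OX the watered atx1 plants differed by 1.39 (95% interval 0.023 to 2.76; limma adjusted p = 0.332). There 591 of 22746 probe sets were called, 286 of them higher and 305 lower, where those lower made up 1.34% of all tested. With each array centred on its median these counts were 206 higher and 292 lower against wild type and 212 and 330 against MYO-OX. Watered MYO-OX differed from watered wild type by 0.33 (95% interval -1.04 to 1.70) in THI2.1, in a comparison with no call by limma among all probe sets (0.00%) and 606 unadjusted p-values under 0.05. The 606 are again fewer than the threshold gives on average when nothing differs. Without watered MYO-OX replicate 2 that comparison had 410 calls. PDF1.2 differed with watering by 0.80 (95% interval -0.93 to 2.52) in atx1 against wild type, by 1.44 (-0.29 to 3.17) in MYO-OX against wild type and by -0.64 (-2.37 to 1.08) in atx1 against MYO-OX, all not called. With the replicate number as a block the limma adjusted p of these differences was 0.602, 0.999 and 0.616.

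Averaged over both water states, a comparison chosen after the data were seen, THI2.1 was 2.01 ± 0.423 higher in atx1 than in wild type (log2, SE; limma adjusted p = 0.0180). The same average was 2.19 higher in atx1 than in MYO-OX (limma adjusted p = 0.0135). Of all probe sets, 13.5% were called in the first of these and 12.6% in the second. PDF1.2 averaged over both water states differed by 0.45 between atx1 and wild type (limma adjusted p = 0.677).

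The second comparison asked what water deficit did within each genotype. PDF1.2 fell in all 3. In wild type it was 6.84-fold lower under deficit than with watering, a log2 difference of -2.77 ± 0.754 (SE; 95% interval -4.50 to -1.05; limma adjusted p = 0.0349). In MYO-OX it was 11.4-fold lower, a log2 difference of -3.51 (95% interval -5.24 to -1.79; limma adjusted p = 0.0119). In atx1 it was 11.0-fold lower, a log2 difference of -3.46 (95% interval -5.19 to -1.74), and its limma adjusted p of 0.04999 was just under the threshold. Calls were common in these comparisons: 10.7% of all probe sets were called lower and 19.6% in either direction in wild type, 14.0% and 24.7% in MYO-OX, and 1.09% and 3.19% in atx1. With each array centred on its median the calls in wild type were 2563 higher and 1996 lower, in place of 2037 and 2429, and in MYO-OX 2999 and 2557, in place of 2433 and 3183. The median change of all probe sets then moved to 0.119 in wild type and 0.148 in MYO-OX.

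The PDF1.2 call in wild type ended without 7 of the 12 arrays in turn. These were wild-type deficit replicate 1 (-2.85, limma adjusted p = 0.154) or 2 (-2.70, 0.130), watered wild-type replicate 1 (-2.14, 0.214), either atx1 deficit replicate (-2.77, 0.0526) and either MYO-OX deficit replicate (-2.77, 0.0517). The call in MYO-OX ended without MYO-OX deficit replicate 2 (-3.14, limma adjusted p = 0.0792), without watered MYO-OX replicate 1 (-2.75, 0.0627) and in a fit to its own arrays (-3.51, 0.0600). The call in atx1 held without 3 of the 12 arrays only. It ended without atx1 deficit replicate 1 (-3.40, limma adjusted p = 0.141) or 2 (-3.53, 0.192), without watered atx1 replicate 1 (-2.38, 0.218), without either deficit replicate of wild type (0.0912) or MYO-OX (0.0822) and without either watered wild-type replicate (0.0607). With the hybridization covariate the atx1 difference was -4.79 (limma adjusted p = 0.00263) and with the GAPDH covariate -5.16 (0.00486). The call ended too with quantile normalization repeated (-3.43, limma adjusted p = 0.0576) and in a fit to the atx1 arrays alone (-3.46, 0.153). In all of these settings PDF1.2 was lower under deficit, and averaged over the 3 genotypes, a comparison chosen after the data were seen, the difference was -3.25 (limma adjusted p = 0.000691, with 37.1% of all probe sets called).

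THI2.1 did not pass the test for a response to deficit in any genotype. Its log2 difference between deficit and watered plants was 0.91 in atx1 (95% interval -0.46 to 2.27; limma adjusted p = 0.573), -0.69 in MYO-OX (-2.06 to 0.68; 0.465) and 0.33 in wild type (-1.04 to 1.70; 0.824). These intervals still allow a change of up to 2.27 in atx1. Averaged over the 3 genotypes the difference was 0.18 (limma adjusted p = 0.747).

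**Figure D2:**
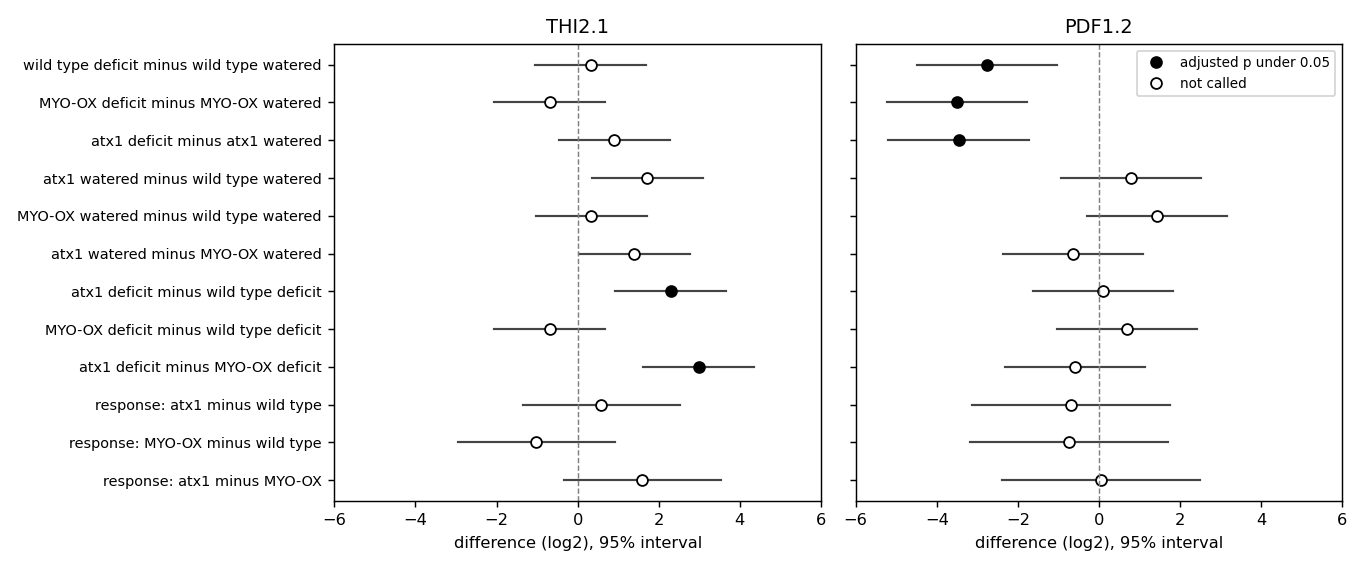
Log2 differences of THI2.1 and of PDF1.2 in each comparison with 95% intervals, where filled points have a limma adjusted p under 0.05. For THI2.1 the filled points are atx1 against wild type (2.30) and against MYO-OX (2.99) under deficit, and for PDF1.2 they are the 3 deficit responses (-2.77 to -3.51).

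The third comparison asked whether the genotypes responded to deficit by different amounts. The THI2.1 response in atx1 exceeded that in wild type by 0.58 ± 0.845 (log2, SE; 95% interval -1.36 to 2.51; limma adjusted p = 0.925), so the excess of THI2.1 in atx1 was not shown to differ between the water states. The THI2.1 response in MYO-OX differed from that in wild type by -1.02 (95% interval -2.95 to 0.92), and that in atx1 from that in MYO-OX by 1.59 (-0.34 to 3.53). For PDF1.2 the responses of atx1 and wild type differed by -0.69 ± 1.07 (log2, SE; 95% interval -3.13 to 1.75; limma adjusted p = 0.930), and with the GAPDH covariate by -2.74 (0.240). Those of MYO-OX and wild type differed by -0.74 (-3.18 to 1.70), and those of atx1 and MYO-OX by 0.048 (-2.39 to 2.49). Over all probe sets 0.176% were called for atx1 against wild type and 0.220% for atx1 against MYO-OX. For MYO-OX against wild type limma called none (0.00%), with 276 unadjusted p-values under 0.05, also fewer than the threshold gives on average when nothing differs. The intervals for PDF1.2 leave room for responses that differ by more than 2 on the log2 scale, so the similar sizes of its fall do not show that the genotypes responded alike.

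The 2 genes did not follow each other. Over the 12 arrays, which share 6 groups, THI2.1 and PDF1.2 correlated at r = -0.116 (Spearman rho -0.238). Within the 6 deficit arrays r was -0.235 and within the 6 watered arrays -0.0722. The array with the highest PDF1.2 signal, watered MYO-OX replicate 1 at 9.24, had a THI2.1 signal of 9.60, whereas the array with the highest THI2.1 signal, atx1 deficit replicate 1 at 12.30, had a PDF1.2 signal of 4.31.

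The closest relatives came next: a list of 8 PDF1 defensins and thionins, of which 6 had a probe set listed for that gene alone. PDF1.2c and PDF1.3, close copies of PDF1.2, had none, so whether their transcripts bind the PDF1.2 probes was not tested. In MYO-OX 4 of the 6 relatives were called lower under deficit and none was called higher, beside 14.0% of all probe sets called lower, and the median change was -2.49 beside 0.041 over all probe sets. In wild type 2 of the 6 were called lower and none higher, beside 10.7% called lower, with a median of -2.08 beside 0.0077. In atx1 limma called none of the 6, beside 1.09% called lower, with a median of -0.77 beside -0.014. In the alternative settings, the averages apart, the number called was 1 to 4 in MYO-OX, 2 to 4 in wild type and 0 to 2 in atx1. The atx1 calls were PDF1.2b with the hybridization covariate (-3.32, limma adjusted p = 0.00263), the GAPDH covariate (-3.71, 0.00821) or the replicate block (-2.02, 0.0405), and THI2.2 with the hybridization (-2.16, 0.0219) or GAPDH covariate (-2.38, 0.0222). None of the 6 was called in a difference of responses between genotypes. Of all probe sets, 0.176% were called there for atx1 against wild type and 0.220% against MYO-OX. A weaker fall of these relatives in atx1 was therefore not shown.

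PDF1.2b, a neighbour of PDF1.2 in sequence, is read by a probe set whose probes may be shared with other genes. Its signal was 6.08 and 5.66 under deficit and 8.96 and 6.83 with watering in atx1, 6.82 and 5.56 under deficit and 9.57 and 8.42 with watering in MYO-OX, and 6.25 and 5.79 under deficit and 8.04 and 7.51 with watering in wild type. As for PDF1.2, all 6 deficit arrays lay below all 6 watered arrays, with MYO-OX deficit replicate 1 at 6.82 only just below watered atx1 replicate 2 at 6.83. The fall was called in MYO-OX (-2.80; limma adjusted p = 0.0229) and not in atx1 (-2.02; 0.198) or wild type (-1.76; 0.127). In wild type it was called with the hybridization (-1.97, limma adjusted p = 0.000892) or GAPDH covariate (-1.403, 0.0490), with the replicate block (0.0189) and in a fit to its own arrays (0.0173). The MYO-OX call ended without MYO-OX deficit replicate 2 (-2.17, limma adjusted p = 0.138), without watered MYO-OX replicate 1 (-2.23, 0.116) and in a fit to those arrays alone (-2.80, 0.0864).

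PDF1.4, a defensin of the same class, read 5.67 and 7.50 under deficit and 6.69 and 7.97 with watering in atx1, 6.17 and 6.13 under deficit and 9.75 and 7.89 with watering in MYO-OX, and 6.28 and 6.26 under deficit and 8.45 and 8.89 with watering in wild type. The water states overlapped in atx1 only. PDF1.4 was lower under deficit in MYO-OX (-2.67; limma adjusted p = 0.0304), and the values in wild type (-2.40; 0.0518) and atx1 (-0.74; 0.759) did not pass. In wild type it was called with median centring (-2.29, limma adjusted p = 0.0473) and in a fit to its own arrays (0.00648), among other settings. Without either MYO-OX deficit replicate, either wild-type deficit replicate or watered MYO-OX replicate 1, the difference in MYO-OX was -2.69 to -1.74 with a limma adjusted p of 0.0509 to 0.157, and in a fit to its own arrays it was 0.106.

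THI2.2, the thionin gene next in kind to THI2.1, did not share the THI2.1 pattern. It read 7.14 and 7.19 under deficit and 8.83 and 8.47 with watering in atx1, 7.21 and 6.11 under deficit and 9.37 and 8.56 with watering in MYO-OX, and 6.30 and 6.33 under deficit and 10.03 and 8.80 with watering in wild type. THI2.2 was lower on deficit than on watered arrays in each genotype. In wild type it fell by 3.10, or 8.55-fold (limma adjusted p = 0.00331), and in MYO-OX it fell by 2.30 (0.0103), while the difference in atx1 was -1.49 (0.158). Under deficit atx1 and wild type differed by 0.85 in THI2.2 (limma adjusted p = 0.316, and 0.0384 in a fit to those arrays alone), where THI2.1 differed by 2.30; the 2 differences were not tested against each other. The MYO-OX call of THI2.2 ended without MYO-OX deficit replicate 2 (-1.76, limma adjusted p = 0.0699), without watered MYO-OX replicate 1 (-1.90, 0.0541) and in a fit to its own arrays (-2.30, 0.0874).

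AT1G66100 entered the list with the thionins, and the annotation gives it no symbol. It ran against THI2.1 across genotypes: its signal was 4.09 and 4.15 under deficit and 5.80 and 4.05 with watering in atx1, 10.03 and 8.82 under deficit and 12.89 and 12.69 with watering in MYO-OX, and 9.03 and 9.19 under deficit and 12.83 and 12.32 with watering in wild type. All 4 atx1 arrays lay far below the other 8. The difference between atx1 and wild type was -7.65 with watering (limma adjusted p = 0.000706) and -4.99 under deficit (0.00170), where 4.73% of all probe sets were called lower, and against MYO-OX it was -7.86 (0.000527) and -5.31 (0.00139; 4.44% called lower). The atx1 levels are not shown to exceed background, so these sizes are not exact. Under deficit AT1G66100 fell by 3.46 in wild type (limma adjusted p = 0.00392) and fell by 3.37 in MYO-OX (0.00408), and the difference in atx1 was -0.81 (0.595). In fits to the arrays of a comparison alone the watered differences gave limma adjusted p = 0.0534 against wild type and 0.137 against MYO-OX.

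PDF1.1, which the annotation names LCR67, lay between 3.87 and 5.53 and AT2G15010 between 3.92 and 4.68 on the 12 arrays. Neither was called by limma in any of the 12 comparisons. Without wild-type deficit replicate 2, PDF1.1 was called in the wild-type response (1.497, limma adjusted p = 0.0200) and in atx1 against wild type under deficit (-1.57, 0.0304).

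**Figure D3:**
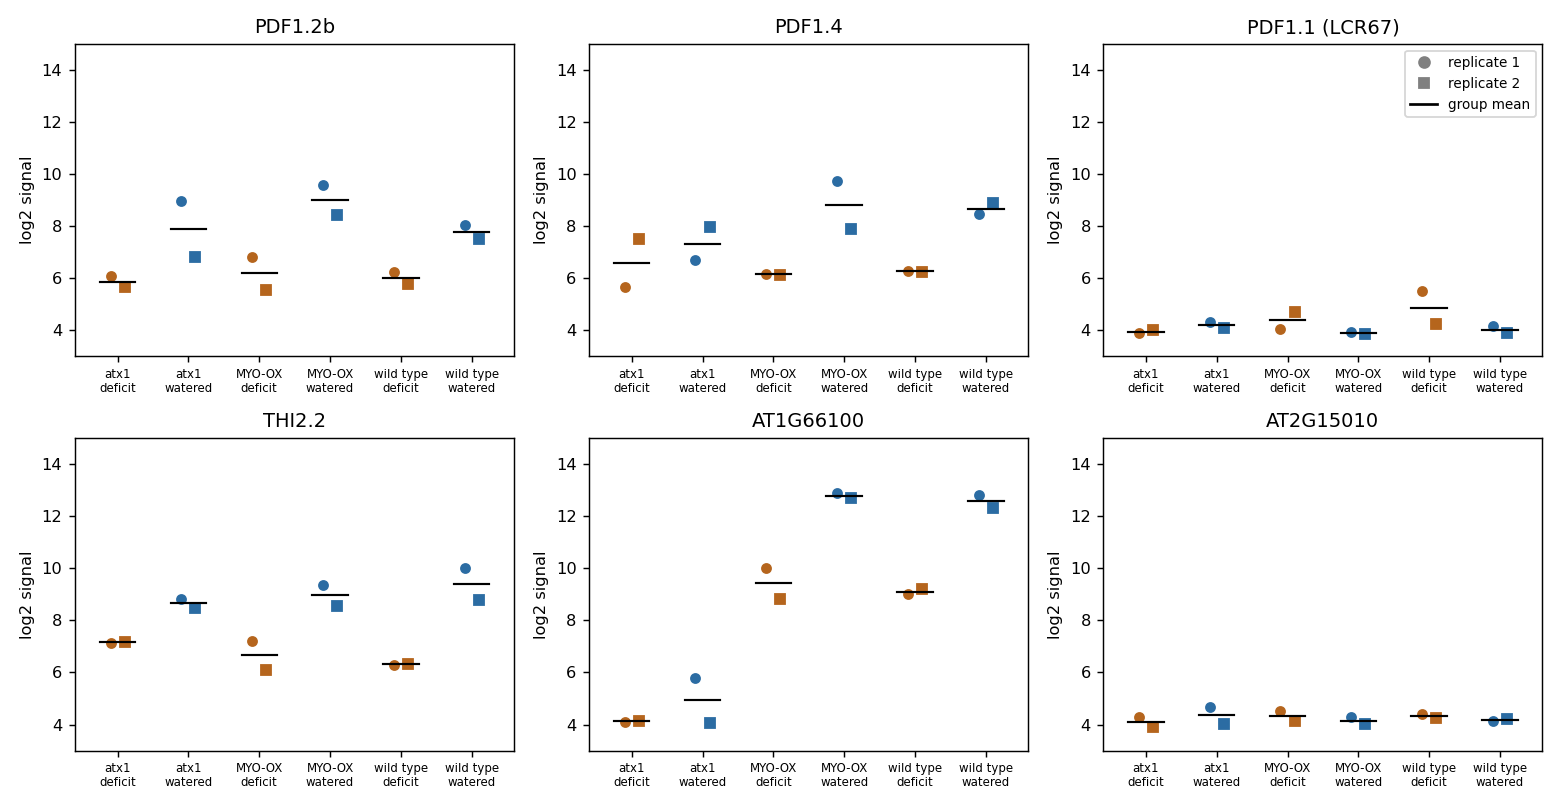
Log2 signal of the measured relatives of PDF1.2 and THI2.1 on each array, by genotype and water state, with circles for replicate 1, squares for replicate 2, brown for deficit, blue for watered and black lines for group means. AT1G66100 sits between 4.05 and 5.80 on the atx1 arrays and between 8.82 and 12.89 on the others, and THI2.2 sits lower under deficit than with watering in each genotype.

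The pathway around the 2 genes could be read only in part, since the annotation lists few of its genes. Of the upstream and parallel lists, 3 of 16 jasmonate biosynthesis genes, 2 of 12 genes of the MYC branch, 1 of 7 of the ERF branch and 1 of 12 salicylate genes were measured under their names. None of 4 jasmonate catabolism genes, 15 perception and repressor genes and 10 ethylene genes was. ORA59, ERF1, MYC2, VSP2, PR4, PR3 and PR1 were not measured under their names.

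None of the 3 biosynthesis genes, DGL, OPCL1 and JMT, was called by limma in any of the 12 comparisons, in which 0.00% to 24.7% of all probe sets were called. JMT, which makes methyl jasmonate, differed between deficit and watered plants by -1.41 in MYO-OX (limma adjusted p = 0.129) and by -1.23 in wild type (0.209). Without watered MYO-OX replicate 1 the MYO-OX response was called for JMT (-2.23, limma adjusted p = 0.0353) and for OPCL1 (-2.799, 0.0148), a ligase of jasmonate synthesis, and in a fit to the wild-type arrays alone that of JMT was called in wild type (0.0394). EIN3, the ethylene transcription factor upstream of ERF1, differed by 1.26 in the MYO-OX response (limma adjusted p = 0.122). It was called there without watered MYO-OX replicate 2 (2.12, limma adjusted p = 0.00598) and with the hybridization (1.48, 0.0285) or GAPDH covariate (1.48, 0.00397), and in the atx1 response with the GAPDH covariate (1.68, 0.0236).

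MYC4, a transcription factor of the MYC branch, was called lower under deficit in wild type and MYO-OX. Its signal was 6.44 and 6.78 under deficit and 7.17 and 7.50 with watering in atx1, 4.98 and 4.78 under deficit and 7.63 and 7.19 with watering in MYO-OX, and 4.98 and 5.41 under deficit and 7.74 and 7.75 with watering in wild type. It fell by 2.55 in wild type (limma adjusted p = 0.000441) and fell by 2.53 in MYO-OX (0.000421). In atx1 both deficit arrays also lay below both watered arrays, a change that was not called. No difference of MYC4 responses between genotypes was called with all arrays included. Under deficit MYC4, like THI2.1, was higher in atx1 than in wild type (1.42; limma adjusted p = 0.00830) and than in MYO-OX (1.73; 0.00403). The call against wild type ended without wild-type deficit replicate 1 (1.196, limma adjusted p = 0.0870) and with the GAPDH covariate (1.42, 0.0653). The likeness to THI2.1 did not extend to watered plants. There MYC4 averaged 7.34 in atx1, 7.75 in wild type and 7.41 in MYO-OX, where THI2.1 averaged 11.20, 9.47 and 9.80. MYC3, the partner of MYC4 in the branch, was not called.

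SAG101, a partner of EDS1 in salicylate-linked immunity, changed by -1.2999 in MYO-OX under deficit (limma adjusted p = 0.00770; 0.120 in a fit to those arrays alone). Its signal under deficit was 3.74 and 3.79 in MYO-OX, 3.75 and 3.61 in wild type and 4.64 and 4.56 in atx1. With watering it was 4.66 and 5.47 in MYO-OX. In wild type under deficit it stood at or above only 6.1% to 9.6% of the tested probe sets. These levels are not shown to exceed background, so the sizes are not exact. SAG101 was 0.92 higher in atx1 than in wild type under deficit (limma adjusted p = 0.0481). That call ended without either replicate of watered or deficit atx1, of watered or deficit wild type, or of MYO-OX under deficit, with limma adjusted p of 0.0702 to 0.207 and differences of 0.85 to 0.99. It also ended with median centring (0.69, limma adjusted p = 0.114), with the hybridization (0.0809) or GAPDH covariate (0.0883) and with the replicate block (0.0525). Without either watered MYO-OX replicate SAG101 was called in atx1 against MYO-OX under deficit (0.84, limma adjusted p = 0.0129) and in the wild-type response (-0.78, 0.00922).

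The genes most like each of the pair were taken from 864 probe sets with a symbol and group means spanning at least 1 on the log2 scale, by Pearson r over the 12 arrays. The arrays share 6 groups, so r is a description. For THI2.1 they were GUT2 (r = 0.925), a glycosyltransferase of xylan synthesis, WNK9 (0.889), a WNK-family protein kinase, LOV1 (0.889), a nucleotide-binding leucine-rich repeat protein that confers victorin sensitivity, GILT (0.886) and JAL23 (0.880), a jacalin-related lectin. GILT was the most uneven of them, with group means of 10.57 under deficit and 8.54 with watering in atx1, against 3.69 to 3.91 in the 4 groups of MYO-OX and wild type. The genes running most opposite to THI2.1 were CYP71B24 (r = -0.909), a cytochrome P450, CCOAMT (-0.905), a methyltransferase, and WRKY22 (-0.889), a transcription factor of immune signalling. WRKY22 averaged 5.10 under deficit and 5.70 with watering in atx1, 6.96 and 7.69 in MYO-OX, and 7.20 and 7.51 in wild type.

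For PDF1.2 the most alike were PDF1.2b (r = 0.968), PR-1-LIKE (0.937), named for its likeness to pathogenesis-related protein 1, HWS (0.936), an F-box protein, and the methionine sulfoxide reductases MSRB9 (0.932) and MSRB6 (0.927), which repair oxidized methionine. MSRB6 had group means of 5.44 under deficit and 9.83 with watering in atx1, 6.69 and 11.15 in MYO-OX, and 6.15 and 10.73 in wild type, the same low and high groups as PDF1.2. Running most opposite to PDF1.2 were BZIP17 (r = -0.950), a transcription factor of salt and endoplasmic reticulum stress, AAE16 (-0.939), an acyl-activating enzyme, and ALDH7B4 (-0.935), a stress-inducible aldehyde dehydrogenase. ALDH7B4 averaged 12.69 under deficit and 10.00 with watering in atx1, 13.25 and 9.32 in MYO-OX, and 13.11 and 9.95 in wild type.

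**Figure D4:**
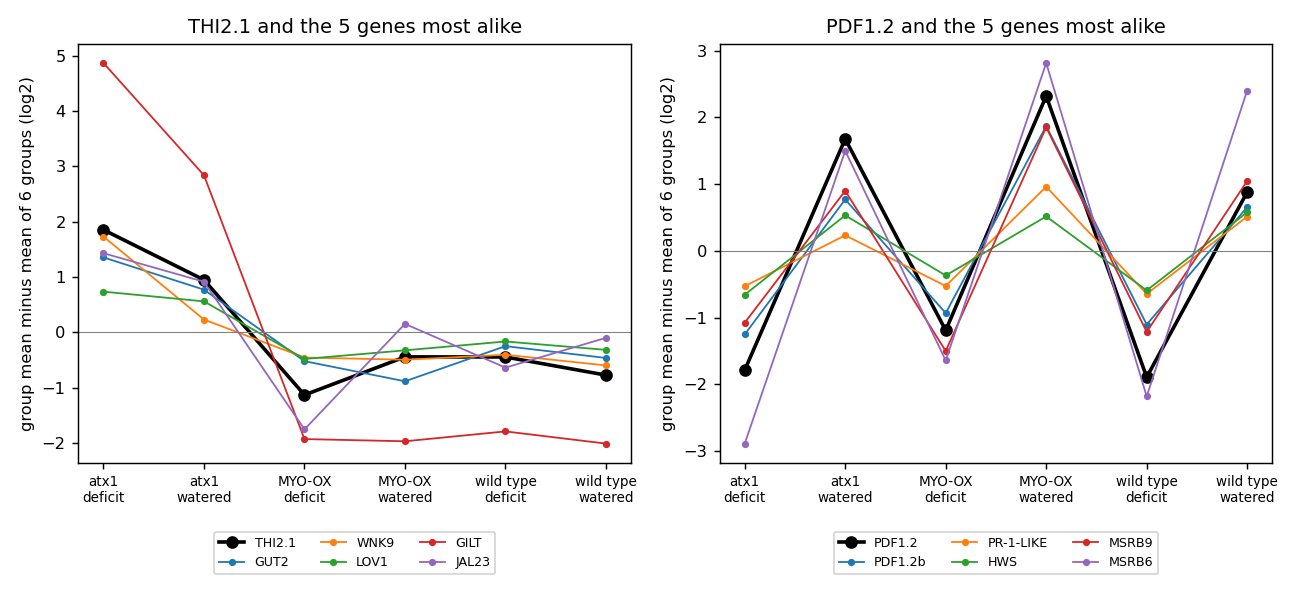
Group means of THI2.1, of PDF1.2 and of the 5 genes most alike to each, drawn as the log2 difference from the gene's own mean over the 6 groups. The genes alike to THI2.1 are highest in the atx1 groups, most of all GILT, and the genes alike to PDF1.2 are low in all 3 deficit groups and high in all 3 watered groups.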

How the data were processed

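Values were the log2 signals the authors deposited for 12 ATH1 arrays, made by RMA per the submitters' processing notes. The sources used here do not give the RMA version, and the image files were not used. The 64 control probe sets were set apart from the 22810, which left 22746 for the tests. The array's annotation table gave 13513 probe sets 1 gene and 503 several; 13436 were matched to a locus of RefSeq TAIR10.1, used for names and neighbours, 1551 of them with a symbol, and 8730 tested probe sets had no gene listed. Group means over all 12 arrays were compared by limma 3.58.1 under R 4.3.3 (6 residual and 2.34 prior degrees of freedom), two-sided, with Benjamini-Hochberg adjustment within each of 12 comparisons. The 2 genes and the lists were chosen with earlier results of these data known. Named were both genes, their measured relatives, up to 2 called genes of each other pathway list per comparison, and the 5 most alike and 3 most opposite genes. Genes of the lists added after the data were seen (leaf, flower and seed markers, other defensins, jasmonate in the name) and neighbouring loci fall outside that rule and were chosen after their values were seen. Alternatives were median centring, repeated quantile normalization, omission of the dimmest 40% of probe sets, a trended robust prior, fits to single comparisons, the replicate block, 2 covariates and each array left out in turn. The procedure was tested on simulated data with a common SD for all probe sets and changes in a single group. Real probe sets vary unevenly and change in several groups, so that test checks the calculation only. Promoter motifs were not analysed here. The replicate numbers were checked for pairing: of 15 pairs of groups, 9 had same-numbered deviations correlating above 0.1 (range -0.286 to 0.561), so the numbers were not taken to pair samples over all groups. The 3 pairs of watered groups gave 0.514 to 0.561, and atx1 watered with deficit 0.499.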

Additional observations from a re-analysis of the deposited data

How the results depend on the processing

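Over 24 differences of THI2.1 and PDF1.2, 434 alternatives kept the direction and side of the threshold. Another 35 lost only the call, 3 gained one and 26 changed sign without a call. Several settings, and leaving out arrays outside a comparison, cannot change direction. The averages are other comparisons and gave the THI2.1 gains. The 5 calls were kept in 4 (THI2.1, atx1 against wild type), 6 (THI2.1, atx1 against MYO-OX), 8 (PDF1.2, wild-type response), 7 (MYO-OX response) and 6 (atx1 response) of the 8 settings that left out no array of the comparison, a fit to its arrays alone among them. Their cause was not tested. A group left with 1 array was assumed to vary like the others. The promoter motif description was not run, because no sequence was given. With Spearman's rho in place of r, GUT2 ranked 3 for THI2.1 (rho 0.902) and PDF1.2b ranked 4 for PDF1.2 (rho 0.881), while MSRB9 ranked 65 for PDF1.2 and the opposite genes AAE16 and ALDH7B4 ranked 831 and 807 of 864.

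THI2.1 in atx1 against wild type under deficit was 2.07 with median centring, 2.27 with repeated quantile normalization, 2.23 with the hybridization and 2.13 with the GAPDH covariate, none called. Against MYO-OX it was 2.88 with the GAPDH covariate and 2.99 with the arrays of the comparison alone, and with those arrays alone PDF1.2 changed by -3.51 in MYO-OX and -3.46 in atx1, also not called. The PDF1.2 response of atx1 was -3.43 with repeated quantile normalization, not called. Averaging over water states gave THI2.1 differences of 2.01 for atx1 against wild type and 2.19 against MYO-OX, both called, and -0.18 for MYO-OX against wild type, and the response averaged over genotypes was 0.18 where MYO-OX alone had -0.69. The uncalled PDF1.2 difference of atx1 from wild type under deficit turned to -0.13 with median centring, -1.57 with the hybridization and -1.93 with the GAPDH covariate, and that of MYO-OX from wild type to -0.073 and -0.031 with these covariates. That of atx1 from MYO-OX became a call at -1.50 with the hybridization covariate. The PDF1.2 difference of responses between atx1 and MYO-OX turned to -0.083 with median centring, -0.052 with quantile normalization, -0.83 with the hybridization and -1.36 with the GAPDH covariate.

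Leaving out each array in turn gave THI2.1 ranges of 1.95 to 2.65 for atx1 against wild type and 2.08 to 3.89 against MYO-OX under deficit, -1.59 to 0.22 for MYO-OX against wild type under deficit and -0.30 to 0.96 with watering. Its responses ranged from -0.30 to 0.96 in wild type and -1.60 to 0.22 in MYO-OX, and the difference of the atx1 and wild-type responses from -0.050 to 1.21. PDF1.2 responses ranged from -4.55 to -2.38 in atx1, from -4.28 to -2.75 in MYO-OX and from -3.40 to -2.14 in wild type. With watering PDF1.2 ranged from -0.29 to 1.88 for atx1 against wild type and -1.73 to 0.44 against MYO-OX. The differences of its responses ranged from -1.78 to 0.39 for atx1 and -1.50 to 0.023 for MYO-OX against wild type and from -1.04 to 1.13 for atx1 against MYO-OX.

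With the replicate number as a block, which was not taken to pair samples, no call of either gene changed. THI2.1 differed by 2.30 (limma adjusted p = 0.0489) from wild type and by 2.99 (0.0230) from MYO-OX in atx1 under deficit, and PDF1.2 changed under deficit by -3.46 in atx1 (0.0153).

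In the 8 settings the counts called over all probe sets were 0 to 3908 for the atx1 response (725 as reported), 1176 to 8302 for MYO-OX (5616) and 4265 to 6479 for wild type (4466). They were 1460 to 3395 for atx1 against wild type (2751) and 1196 to 3166 against MYO-OX (2539) under deficit, and 60 to 986 (501) and 0 to 1060 (591) with watering. The lowest counts of 0, 1176, 1196, 60 and 0 came from the arrays of the comparison alone. The averages gave 8443 for the responses, 3066 for atx1 against wild type and 2869 against MYO-OX. Leaving out each array in turn gave 177 to 1166 for the atx1 response (lowest without watered atx1 replicate 2), 2686 to 7766 for MYO-OX (without MYO-OX deficit replicate 2) and 1441 to 6109 for wild type (without wild-type deficit replicate 1). It gave 504 to 3977 (without wild-type deficit replicate 1) and 646 to 3664 (without MYO-OX deficit replicate 2) for atx1 against wild type and MYO-OX under deficit. With watering it gave 101 to 765 (without watered wild-type replicate 1) and 201 to 2689 (without watered atx1 replicate 2), and 0 to 410 for MYO-OX against wild type. All these highest counts came without watered MYO-OX replicate 2, or either replicate where that group is not compared. The differences of responses gave 0 to 107 (40; highest without atx1 deficit replicate 2) for atx1 against wild type and 0 to 1558 (50; without watered MYO-OX replicate 2) against MYO-OX.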

Other observations

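Other cysteine-rich defensin-family peptides, listed by name after the data were seen, had 9 measured of 83. LCR72 read 5.39 and 5.80 in atx1 under deficit and 3.93 to 4.39 on the other 10 arrays, so the groups did not overlap. It was higher in atx1 under deficit than in watered atx1 (1.29; limma adjusted p = 0.0100), than in wild type under deficit (1.60; 0.00197) and than in MYO-OX under deficit (1.47; 0.00285). The response in atx1 ended as a call without atx1 deficit replicate 2 (1.09, limma adjusted p = 0.0632), without watered atx1 replicate 2 (1.21, 0.0760) and in a fit to those arrays alone (1.29, 0.119). Under deficit LCR24 read 4.47 and 4.13 in atx1, 3.57 and 3.46 in wild type and 3.65 and 3.66 in MYO-OX. These levels are not shown to exceed background. LCR24 was called higher in atx1 than in wild type (0.79; limma adjusted p = 0.0183) and than in MYO-OX (0.65; 0.0385) under deficit. LCR69 was called higher there than in MYO-OX (1.19; limma adjusted p = 0.0468), and LCR68 was called lower in the MYO-OX response (-1.19; 0.0297). These calls ended in 7 (LCR24 against wild type), 13 (LCR24 against MYO-OX), 15 (LCR69) and 7 (LCR68) alternative settings, with either replicate of wild type under deficit left out in turn among those for all 4. JRG21, named for regulation by jasmonate, ran against PDF1.2 in each genotype. It read 10.27 and 10.56 under deficit and 6.99 and 8.40 with watering in atx1, 11.62 and 11.41 under deficit and 8.30 and 10.10 with watering in MYO-OX, and 12.16 and 10.94 under deficit and 8.99 and 10.05 with watering in wild type. Its increase was called in MYO-OX (2.31; limma adjusted p = 0.0444) and not in atx1 (2.72; 0.0865) or wild type (2.03; 0.0804). In wild type it was called with median centring (2.14, limma adjusted p = 0.0407), among other settings. In atx1 it was called with the hybridization (3.59, limma adjusted p = 0.0231) or GAPDH covariate (4.24, 0.00825), among other settings. Averaged over the 3 genotypes, a comparison chosen after the data were seen, it was 2.35 (limma adjusted p = 0.00239). In that average 37.1% of all probe sets were called. The MYO-OX call ended without either replicate of MYO-OX under deficit, atx1 under deficit or wild type in either water state and without watered MYO-OX replicate 1, with differences of 1.41 to 2.42 and limma adjusted p of 0.0519 to 0.228, and in a fit to its own arrays (0.128).

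Of the 3 loci on each side of THI2.1, 4 of 6 were measured. AT1G72230, 3 loci before it, was higher in atx1 than in wild type under deficit (1.78; limma adjusted p = 0.0226) and than in MYO-OX (1.99; 0.0159). The first of these calls ended without either atx1 deficit replicate or wild-type deficit replicate 1 (limma adjusted p = 0.0584 to 0.181) and with either covariate (0.115 and 0.252), and the second without atx1 deficit replicate 1 (0.0970) or MYO-OX deficit replicate 2 (0.105) and with the GAPDH covariate (0.0666). AT1G72250, which overlaps THI2.1 in the annotation, read 5.56 and 4.63 under deficit and 5.69 and 5.20 with watering in atx1, and 4.09 to 4.46 on the other 8 arrays, and was not called in atx1 against wild type (limma adjusted p = 0.0879 under deficit, 0.160 with watering). Averaged over both water states, a comparison chosen after the data were seen, AT1G72250 was called higher in atx1. The difference was 1.00 from wild type (limma adjusted p = 0.0208) and 0.996 from MYO-OX (0.0221), beside 13.5% and 12.6% of all probe sets called. PYK10, a root beta-glucosidase and the 1 measured root marker, read 6.89 and 7.65 under deficit and 6.18 and 7.20 with watering in atx1, 8.09 and 7.35 and then 9.40 and 10.75 in MYO-OX, and 8.03 and 7.67 and then 10.66 and 10.48 in wild type. Like PDF1.2 it was lower under deficit in MYO-OX and wild type on every array, and unlike PDF1.2 it was low in watered atx1. The falls were called in MYO-OX (-2.35; limma adjusted p = 0.0130) and wild type (-2.72; 0.00798). They ended as calls in 2 and 1 of 20 alternative settings. The part of PYK10 in the results for PDF1.2 was not tested. Near PDF1.2, 2 of 6 loci were measured: AT5G44450 was called lower in the MYO-OX response (-1.28; limma adjusted p = 0.0328), a call that ended in 9 of 20 settings, and AT5G44440 was not called.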
